A study of Mus musculus with 15 samples.

Results

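Levels of 9 C-type lectin receptor genes of myeloid cells were compared across normal mouse progenitors and 3 groups of cells from mice engineered to express the leukaemia fusion gene MLL-AF9. The genes are Clec7a, Clec9a, Clec4e, Clec4d, Clec4n and Clec5a, whose receptors activate cells, Clec12a and Clec4a2, whose receptors inhibit them, and Mgl2, an endocytic receptor. They are 9 of the 20453 genes with a symbol in the count table. The 9 names were listed with earlier results of these libraries known, and the transcript that stands for each gene was chosen by its mean count over the libraries. Their fold changes and adjusted p-values therefore describe size against the spread between libraries and are no independent evidence for the choice of genes.

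RNA came from sorted bone marrow of C57BL/6 mice. The human MLL-AF9 cDNA had been placed into targeting cells that carry a doxycycline-inducible Cre, selected clones gave chimaeric lines, and double heterozygous females were used after backcrossing. The labels give no promoter, dose, age or induction time for these libraries, nor do they say whether the animals behind wtGMP carry the transgene. Before sorting, marrow was depleted of cells bearing Ter119, Gr-1, B220, Cd11b or Cd5, and gates are described for granulocyte-macrophage progenitors (GMP) and long-term haematopoietic stem cells. The 14 libraries compared carry 4 names: wtGMP (4 libraries), read here as wild-type GMP, LTearly (4), LTlate (3) and BMTGMP (3). The last 3 names are not spelled out and are called the leukaemia groups. Another library, titled LTearly in its sample record and LTlate in its column, is shown apart. The labels do not say whether replicates are separate animals. The p-values can therefore measure no more than the spread among the libraries at hand, which may be technical.

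C-type lectin receptors are surface proteins that bind sugars, lipids or the remains of dead cells. Activating members signal through an immunoreceptor tyrosine-based activation motif (ITAM), held in their own tail or in the adaptors FcRγ (Fcer1g) and DAP12 (Tyrobp), to the kinase Syk and the adaptor Card9, which leads to NF-κB activation and inflammatory cytokines. Inhibitory members carry an ITIM motif that recruits the phosphatases SHP-1 (Ptpn6) and SHP-2 (Ptpn11). In bone marrow these receptors are best known from neutrophils, monocytes and dendritic cells, and human CLEC12A is a surface antigen of acute myeloid leukaemia.

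Of the 9 genes, 8 lie on mouse chromosome 6. Positions are from RefSeq on GRCm38.p6, which is not the mm9 build of the authors' alignment. Clec4a2 (chr6:123122690-123143999), Clec4n (chr6:123229843-123247024), Clec4d (chr6:123262107-123275268) and Clec4e (chr6:123281789-123289871) belong to a run of 9 Clec4 genes that spans 368.0 kb from Clec4a1 to Clec4e. Clec12a (chr6:129349783-129365303), Clec9a (chr6:129408862-129424764) and Clec7a (chr6:129461591-129472785) share a stretch of 123.0 kb. Clec5a lies at chr6:40574898-40585805, and Mgl2 stands on chromosome 11 (chr11:70130125-70137542). RefSeq promoter entries were matched for 8 of the 9 genes. The 250 bases before the start are shown for 3 genes of the Clec4 run, because the counts of Clec4d and Clec4e moved together across libraries whereas those of Clec4a2 did not follow them. Sequences run 5′ to 3′ on the gene's strand, and capitals mark matches to the motifs searched.
Clec4d (chr6:123261857-123262106, plus strand): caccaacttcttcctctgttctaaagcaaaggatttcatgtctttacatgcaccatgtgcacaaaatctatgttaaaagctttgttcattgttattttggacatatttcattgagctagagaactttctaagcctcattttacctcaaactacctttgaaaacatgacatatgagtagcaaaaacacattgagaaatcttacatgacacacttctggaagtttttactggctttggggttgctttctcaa
Clec4e (chr6:123289872-123290121, minus strand): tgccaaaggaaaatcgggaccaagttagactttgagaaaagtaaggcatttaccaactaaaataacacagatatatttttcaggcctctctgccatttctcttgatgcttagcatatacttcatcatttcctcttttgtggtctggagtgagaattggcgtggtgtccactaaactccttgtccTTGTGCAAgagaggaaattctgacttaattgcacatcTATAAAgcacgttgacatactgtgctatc
Clec4a2 (chr6:123122440-123122689, plus strand): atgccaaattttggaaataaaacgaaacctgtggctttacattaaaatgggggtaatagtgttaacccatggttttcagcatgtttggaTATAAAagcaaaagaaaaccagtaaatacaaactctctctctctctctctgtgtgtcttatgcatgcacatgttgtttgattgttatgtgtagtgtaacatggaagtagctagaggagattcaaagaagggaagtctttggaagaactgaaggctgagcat
On both strands 4 motifs were searched: TTGCNNAA for CCAAT/enhancer-binding proteins, GAGGAAGT for PU.1, the NF-κB consensus (GGGA, any base, TTTCC) and TATAAA for the TATA box. In the Clec4e window TTGCNNAA matched the reverse strand from base -66, and TATAAA matched the gene's strand from base -29. Of the 8 promoters, 2 (Clec4e and Clec12a) hold TTGCNNAA, against 9.11% of all protein-coding promoters. TATAAA was found in 4 of the 8 (Clec4e, Clec4a2, Clec9a and Clec5a), against 12.38%, counted at any position and on either strand of the window. Outside Clec4e the matches lay further from the start. They began at base -161 on the gene's strand in Clec4a2, and on the reverse strand at -209 in Clec5a and -226 in Clec9a. GAGGAAGT and the NF-κB consensus were found in 0 of the 8, against 2.18% and 0.34%. A match describes these letters in this window and is not a measured binding site.

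Levels are given as CPM, counts on a gene per 1000000 counts on the 14542 genes tested, with each library's total scaled by its TMM normalisation factor. Counts on all named genes came to 2469470 to 6978756 per library in wtGMP and 2695917 to 8695136 in LTearly. They came to 11569408 to 15093009 in LTlate and 4556108 to 10712743 in BMTGMP. A count of 0 allows up to 0.430 to 1.21 CPM in a wtGMP library. That floor is 3 counts of the total on all named genes, without the scaling. The floor and the counting intervals below cover counting error only. Each change is a log2 fold change, written ± its standard error (SE), from edgeR's quasi-likelihood test in 1 fit of all 14 libraries, and a gene was called at a Benjamini-Hochberg adjusted p under 0.05 over the 14542 genes tested. The 9 genes all passed the low-count filter. LTearly libraries resembled each other least, with rank correlations of 0.861 to 0.903 against 0.948 to 0.956 in LTlate. In bulk RNA, fewer cells of a type and less RNA per cell cannot be told apart.

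**Figure D1:**
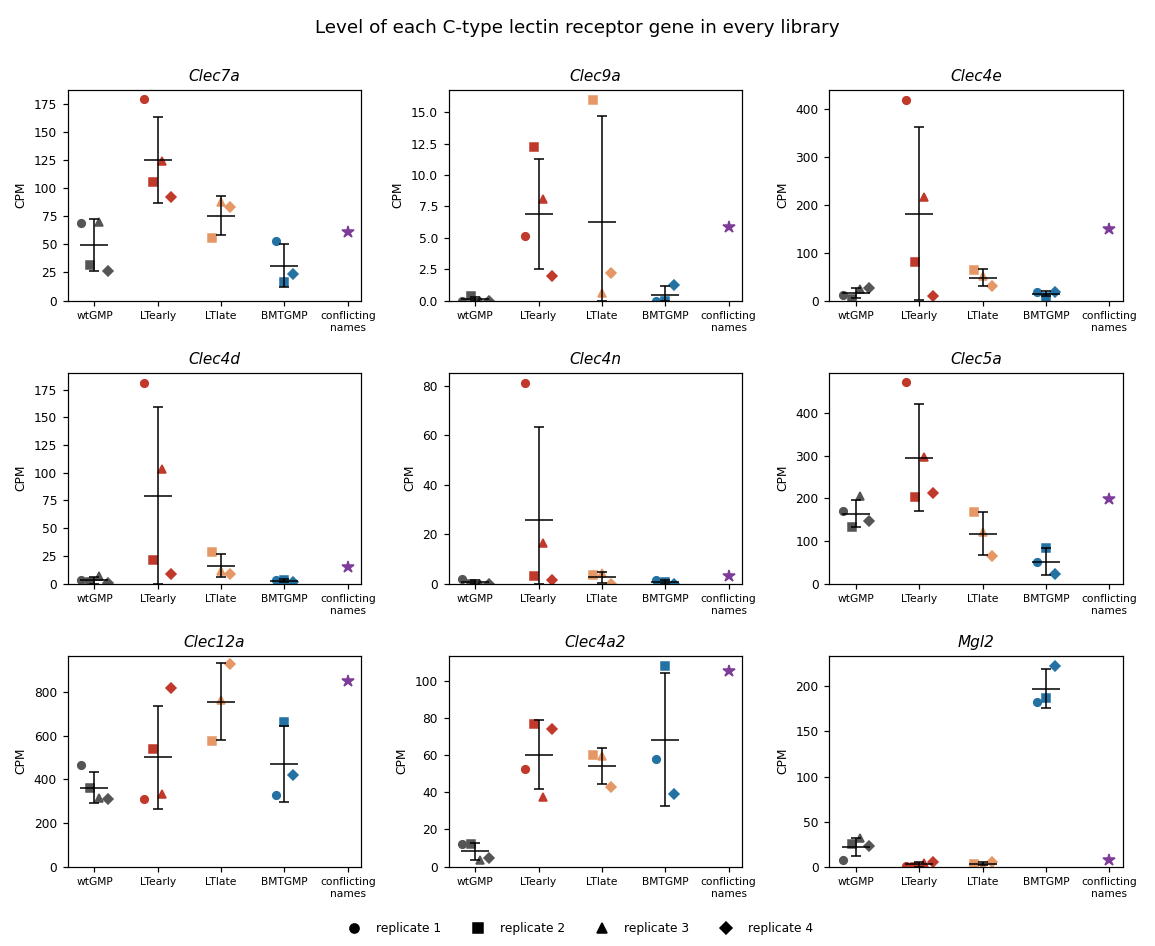
CPM (linear axis from 0) of each of the 9 genes in every library, by group, with the replicate number as the symbol, the mean as a bar, the SD as whiskers (not drawn below 0), and the library with conflicting names as a star. Mgl2 stands above 180 CPM in BMTGMP and under 6 CPM in LTearly and LTlate, and the highest library of Clec4d, Clec4e, Clec4n, Clec5a and Clec7a is LTearly replicate 1.

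In LTearly against wtGMP, 5 of the 9 genes were called higher (Clec7a, Clec9a, Clec4d, Clec4e and Clec4a2), beside 11.1% of all genes tested, and 1 lower (Mgl2), beside 8.93%. LTlate against wtGMP gave 2 called higher (Clec9a and Clec4a2), beside 7.53%, and 1 lower (Mgl2), beside 3.25%. In BMTGMP against wtGMP, 2 were called higher (Mgl2 and Clec4a2), beside 4.41%, and 0 lower by edgeR, beside 2.17%, with 1 lower (Clec5a) at an unadjusted p under 0.05 and by DESeq2. These 3 comparisons share the wtGMP libraries. Between the leukaemia groups, LTearly stood higher than BMTGMP at 3 genes (Clec7a, Clec4d and Clec5a), beside 3.4%, and lower at 1 (Mgl2), beside 2.81%. LTlate against BMTGMP gave 0 higher by edgeR, beside 1.52%, and 1 lower (Mgl2), beside 0.461%. Of those not called there, 4 (Clec9a, Clec7a, Clec4d and Clec5a) were higher at an unadjusted p under 0.05, and DESeq2 called 0 higher. LTearly and LTlate differed at 0 of the 9 by edgeR, beside 0.206%, with 2 (Clec4d and Clec5a) at an unadjusted p under 0.05 and 1 (Clec5a, adjusted p = 0.0265) by DESeq2. All shares given here are for the adjusted p of edgeR. The share of all genes at an unadjusted p under 0.05 was not computed, so the counts at that threshold have no background beside them. Over the 9 genes the median log2 change was 2.87 in LTearly, 1.56 in LTlate and 0.38 in BMTGMP against wtGMP, where all genes tested had medians of 0.22, 0 and 0.07.

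**Figure D2:**
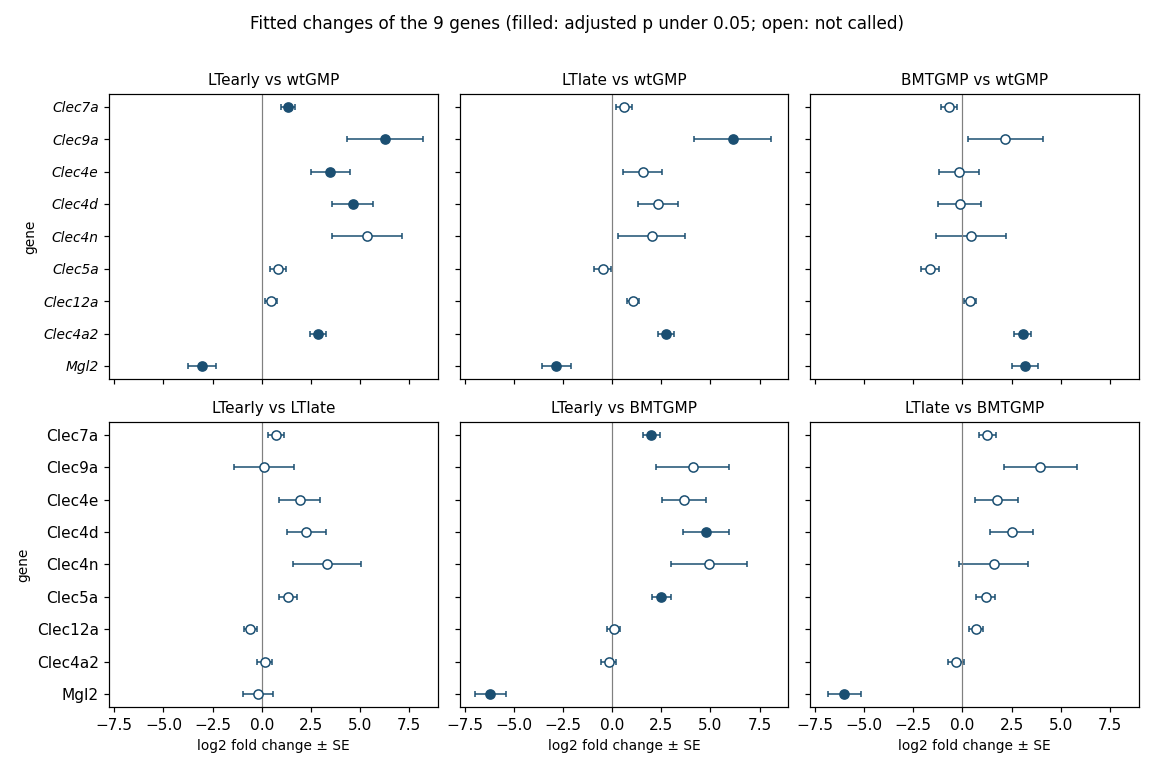
Fitted log2 fold change ± SE (x axis) of the 9 genes (y axis) in the 6 comparisons, filled where the adjusted p was under 0.05 and open where it was not. Clec4a2 is filled in all 3 comparisons with wtGMP, Mgl2 is filled on opposite sides of 0 in LTearly and BMTGMP, and no point is filled between LTearly and LTlate. The fitted value of Clec9a rests on 1 count in wtGMP.

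Clec4d encodes MCL, an FcRγ-coupled receptor for mycobacterial glycolipids that pairs with Mincle, the product of Clec4e. Clec4d measured 3.01, 1.18, 7.17 and 0.633 CPM in wtGMP replicates 1 to 4 and 181, 21.3, 104 and 8.33 CPM in LTearly replicates 1 to 4. It measured 28.4, 11.7 and 8.64 CPM in LTlate replicates 2 to 4 and 3.44, 3.63 and 1.26 CPM in BMTGMP replicates 1, 2 and 4. Every LTearly and LTlate library lay above every wtGMP and BMTGMP library, while LTearly and LTlate overlapped, as did wtGMP and BMTGMP. Clec4d rose in LTearly against wtGMP by 4.62 ± 1.05 (adjusted p = 0.00852) and was higher in LTearly than in BMTGMP by 4.77 ± 1.17 (adjusted p = 0.0362). The call against wtGMP held without any 1 library of the 2 groups, and the change was 4.93 without LTearly replicates 3 and 4. The call against BMTGMP was lost without LTearly replicate 3 (adjusted p = 0.0588) or any 1 BMTGMP library (0.123 to 0.155), with no low-count filter (0.0532) and with only the 2 groups in the fit (0.101). LTlate against wtGMP gave 2.35 ± 1.02 (adjusted p = 0.191, not called), with a 95% interval of 0.35 to 4.35. That change was called by DESeq2 (0.0352) and with only the 2 groups in the fit (0.022).

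Clec4e (Mincle) recognises mycobacterial cord factor and a protein of dead cells through FcRγ. Its level was 10.9, 3.15, 24.4 and 25.7 CPM in wtGMP, and 419, 79.7, 216 and 8.56 CPM in LTearly. In LTlate it was 62.9, 51.1 and 29.3 CPM, and in BMTGMP 18, 8.04 and 17.0 CPM. LTearly replicates 1, 2 and 3 exceeded all wtGMP libraries, whereas LTearly replicate 4 lay within their range. Against wtGMP, Clec4e rose in LTearly by 3.48 ± 1.0 (adjusted p = 0.0326). The call was lost without any 1 of the 4 wtGMP libraries (adjusted p = 0.0597 to 0.0832), without LTearly replicate 1 (0.088) or 3 (0.0623), and with only the 2 groups in the fit (0.0893). LTearly against BMTGMP gave 3.66 ± 1.13 (adjusted p = 0.0927, not called by edgeR; 0.0023 by DESeq2). LTlate libraries all exceeded the wtGMP ones, and that change of 1.56 ± 0.99 was not called (adjusted p = 0.385).

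Clec4n encodes Dectin-2, an FcRγ-coupled receptor for fungal mannans. It measured 2.01, 0, 0 and 0 CPM in wtGMP and 81.3, 3.20, 16.5 and 1.64 CPM in LTearly. Levels in LTlate were 3.59, 4.10 and 0 CPM, and in BMTGMP 1.58, 0.778 and 0 CPM. LTearly replicates 1 and 3 stood apart, and LTearly replicate 4 lay below the highest wtGMP library. LTearly against wtGMP gave 5.33 ± 1.78 (adjusted p = 0.0515, not called), from 403 pooled counts against 14, a ratio of 25.9 with a 95% counting interval of 15.2 to 47.8. The call was made by DESeq2 (adjusted p = 0.0181), with median-ratio size factors (0.0493), without LTearly replicate 2 (0.0472) or 4 (0.0247), and without wtGMP replicate 1 (0.0376), the 1 wtGMP library with counts. Without LTearly replicate 1 the change was 3.63 (adjusted p = 0.222).

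Of the 9 genes of the Clec4 run, 3 (Clec4a1, Clec4a3 and Clec4a2) were called higher in all 3 leukaemia groups. The 3 comparisons share the wtGMP libraries, and the share of all genes called in all 3 was not computed. In BMTGMP neither the 3 genes at the Clec4e end nor Clec4a4 and Clec4b2 were called. Reads with several hits may be divided between similar genes of the run. Clec4a1 rose against wtGMP by 5.67 ± 0.86 in LTearly, 4.38 ± 0.85 in LTlate and 3.13 ± 0.85 in BMTGMP (adjusted p = 2.29e-05, 0.00074 and 0.0208). Clec4a3 was called higher in all 3 groups as well, with 3 pooled counts in wtGMP against 205 in LTearly, 356 in LTlate and 98 in BMTGMP. Clec4b2 rose in LTearly by 5.19 ± 1.11 (adjusted p = 0.0062) and was not called in LTlate or BMTGMP. Clec4b1 was called in LTearly, and Clec4a4 in none of the 3 groups. These 5 neighbours were chosen for their position and named after their values were seen. Clec4n, Clec4d and Clec4e had changes of 0.42, -0.15 and -0.17 in BMTGMP against wtGMP, with SEs of 1.77, 1.09 and 1.03. Whether genes of the run differ in these changes was not tested.

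**Figure D3:**
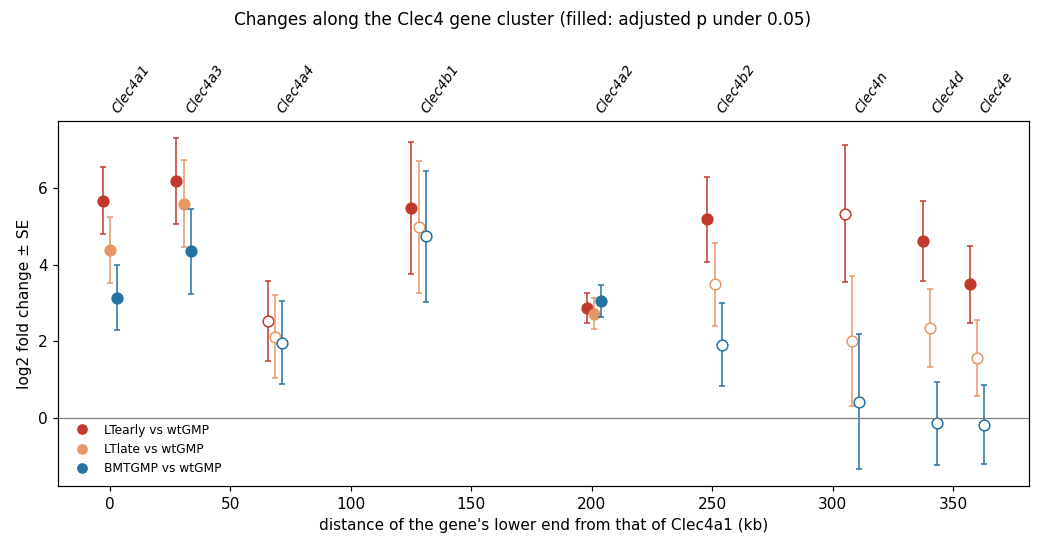
Log2 fold change ± SE against wtGMP (y axis) of the 9 Clec4 genes by distance in kb from the lower end of Clec4a1 (x axis), in LTearly, LTlate and BMTGMP, with points set slightly apart and filled where the adjusted p was under 0.05. Clec4a1, Clec4a3 and Clec4a2 are filled in all 3 groups. In BMTGMP Clec4n, Clec4d and Clec4e lie near 0 with SEs of 1.77, 1.09 and 1.03, and Clec4a4 and Clec4b2 are open too.

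Clec7a encodes Dectin-1, the receptor for fungal β-glucans, which signals through an ITAM-like motif of its own tail. It measured 69.0, 31.9, 70.4 and 26.6 CPM in wtGMP and 179, 106, 124 and 92.4 CPM in LTearly. LTlate had 55.6, 87.9 and 82.9 CPM and BMTGMP 53.0, 16.5 and 23.9 CPM. The LTearly libraries lay above all others, and LTlate lay above BMTGMP, while wtGMP overlapped with both. Clec7a rose in LTearly against wtGMP by 1.33 ± 0.37 (adjusted p = 0.0162), a call that was lost without wtGMP replicate 2 (0.0529) or LTearly replicate 1 (0.0535). It was higher in LTearly than in BMTGMP by 2.0 ± 0.42 (adjusted p = 0.00798), a call lost without BMTGMP replicate 4 (0.0918). LTearly against LTlate gave 0.73 ± 0.40 (adjusted p = 0.513) with an interval of -0.05 to 1.51.

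Clec5a encodes MDL-1, which signals through DAP12 and binds flaviviruses. Its counts gave 171, 133, 207 and 147 CPM in wtGMP, and 473, 203, 297 and 212 CPM in LTearly. In LTlate they gave 167, 122 and 64.2 CPM, and in BMTGMP 49.9, 83.6 and 21.8 CPM. All BMTGMP libraries lay below all wtGMP libraries, and all LTearly libraries above all LTlate libraries. Clec5a was higher in LTearly than in BMTGMP by 2.51 ± 0.48 (adjusted p = 0.00906), a call lost without BMTGMP replicate 1 (0.0607). BMTGMP against wtGMP gave -1.66 ± 0.46 (adjusted p = 0.0548, not called). That difference passed with DESeq2 (0.00062), with only the 2 groups in the fit (0.00983), with transcripts summed (0.0444), at equal depth (0.0379) and without BMTGMP replicate 2 (0.0152). LTearly against wtGMP gave 0.85 ± 0.41 (adjusted p = 0.173, not called; 0.0484 by DESeq2).

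Clec9a encodes DNGR-1, a Syk-coupled receptor for actin filaments of dead cells that marks type 1 conventional dendritic cells. Counts were few: wtGMP had 0, 0.394, 0 and 0 CPM and LTearly 5.14, 12.3, 8.08 and 1.99 CPM. LTlate had 16.0, 0.610 and 2.16 CPM, and BMTGMP 0, 0 and 1.26 CPM. The measured values of LTearly and LTlate all exceeded those of wtGMP, but LTlate replicate 3 lay below the 0.650 and 0.936 CPM that a count of 0 allows in wtGMP replicates 3 and 4, and within the range of BMTGMP. The pooled counts were 106 in LTearly against 1 in wtGMP, a ratio of 95.3 with a 95% counting interval of 16.7 to 3798. In LTlate they were 235 against 1, a ratio of 103 (18.3 to 4093). edgeR called both (adjusted p = 0.0204 and 0.0411). The LTearly call was lost without wtGMP replicate 1, 3 or 4 (adjusted p = 0.0534 to 0.0631) or LTearly replicate 2 (0.0597). The LTlate call was lost without wtGMP replicate 1, 3 or 4 (0.0957 to 0.109), without LTlate replicate 2 (0.383), which gave a change of 3.89, and with transcripts summed (0.0572). Of the Clec9a transcript, 4.60% of its 36-base stretches also occur in other genes, chiefly in Clec1b, whose exons overlap it on the same strand; Clec1b itself had at most 4.0 CPM in any of the 14 libraries.

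Other genes of type 1 dendritic cells were set beside Clec9a. Xcr1, a chemokine receptor that defines these cells, measured 7.59, 7.46, 8.44 and 0.704 CPM in LTearly and at most 2.76 CPM in wtGMP, and was not called (adjusted p = 0.188). Batf3, a transcription factor they require, was at 0 in 2 of the 4 LTearly and all 3 LTlate libraries and at most 0.734 CPM in LTearly. Zbtb46, a factor of conventional dendritic cells, was at 0 in the 4 wtGMP libraries and in 3 of the 4 LTearly libraries, and had 0.0816, 3.83 and 0.270 CPM in LTlate. Of the 9 genes listed for this cell type 6 could be tested. Against wtGMP 1, the hydrolase gene Naaa, was called higher in LTearly (2.16 ± 0.33, adjusted p = 7.65e-05) and 0 lower. Over all genes tested, 11.1% were called higher and 8.93% lower there, so 1 among 6 genes is near the share over all genes. In LTlate and BMTGMP 0 of the 6 were called, beside 7.53 and 4.41% of all genes higher and 3.25 and 2.17% lower. The list summed to 228 to 261 CPM in wtGMP, 292 to 469 in LTearly, 274 to 410 in LTlate and 155 to 224 in BMTGMP. Most of each sum was Wdfy4 and Naaa. Wdfy4 measured 170 to 201 CPM in wtGMP and 89.4 to 201 in LTearly. Naaa measured 23.1 to 59.2 CPM in wtGMP and 92.9 to 255 in LTearly, so the sum joins unlike differences. The part of these genes in the Clec9a result was not tested.

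Clec4a2 encodes DCIR1, an ITIM-bearing receptor that restrains dendritic cells. It measured 12.3, 12.2, 3.81 and 4.43 CPM in wtGMP, and 52.4, 76.8, 37.4 and 73.8 CPM in LTearly. Its level was 59.9, 59.6 and 42.9 CPM in LTlate and 57.9, 108 and 39.0 CPM in BMTGMP. Every library of the leukaemia groups lay above every wtGMP library, and the 3 groups overlapped. Clec4a2 rose against wtGMP by 2.87 ± 0.40 in LTearly (adjusted p = 1.05e-05), by 2.72 ± 0.41 in LTlate (adjusted p = 5.51e-05) and by 3.05 ± 0.41 in BMTGMP (adjusted p = 1.97e-05). Among the leukaemia groups it was not called different, with intervals of -0.59 to 0.90 (LTearly against LTlate), -0.93 to 0.56 (LTearly against BMTGMP) and -1.13 to 0.46 (LTlate against BMTGMP). Of its transcript, 12% of the 36-base stretches also occur in other genes. Clec4a4 shares the most of any gene, 134 stretches, and the other genes that share stretches are not listed here. The counts of Clec4a2 may therefore be mixed with those of Clec4a4 and of other genes. Clec4a4 itself was at most 22.4 CPM in the 14 libraries.

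Clec12a encodes MICL, an ITIM-bearing receptor for uric acid crystals. Of the 9 genes it had the highest mean CPM in every group. Its level was 464, 361, 313 and 311 CPM in wtGMP, and 312, 539, 334 and 817 CPM in LTearly. LTlate libraries had 575, 762 and 929 CPM, all above wtGMP, and BMTGMP libraries 328, 664 and 421 CPM. LTlate against wtGMP gave 1.06 ± 0.32 (adjusted p = 0.0514, not called), and the change passed with DESeq2 (0.00349), with median-ratio size factors (0.0403), with only the 2 groups in the fit (7.75e-05) and without wtGMP replicate 1 (0.0412). LTearly against wtGMP gave 0.47 ± 0.30 (adjusted p = 0.318), with an interval of -0.13 to 1.06, and BMTGMP against wtGMP gave 0.38 ± 0.32 (adjusted p = 0.605). LTearly replicate 4, the lowest LTearly library for Clec4d, Clec4e and Clec4n, was the highest for Clec12a.

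Mgl2 encodes CD301b, a receptor for galactose-type sugars that takes up glycoproteins and marks dendritic cells and alternatively activated macrophages. BMTGMP had 182, 188 and 223 CPM, the least spread of the 9 genes in that group. In wtGMP the level was 7.74, 25.6, 31.4 and 23.4 CPM. In LTearly it was 0.734, 0, 4.04 and 5.16 CPM, and in LTlate 3.18, 1.22 and 4.66 CPM. The order was therefore BMTGMP above wtGMP above LTearly and LTlate, with overlap only between the last 2. Mgl2 rose in BMTGMP against wtGMP by 3.18 ± 0.67 (9.04-fold, adjusted p = 0.0123). It fell against wtGMP by 3.03 on the log2 scale in LTearly (SE 0.72, adjusted p = 0.01) and by 2.83 in LTlate (SE 0.74, adjusted p = 0.0282). Relative to BMTGMP it was lower by 6.20 ± 0.79 in LTearly (log2 change -6.20, adjusted p = 0.000734) and at -6.01 ± 0.85 in LTlate (adjusted p = 0.00257). The rise in BMTGMP was not called without BMTGMP replicate 4 (adjusted p = 0.0562). The fall in LTlate was lost in 6 of the 7 fits without 1 library, all but the one without wtGMP replicate 1 (adjusted p up to 0.142), and with no low-count filter (0.0583). Without LTearly replicates 3 and 4 the changes of LTearly were -5.83 against wtGMP and -9.0 against BMTGMP.

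Of the Mgl2 transcript, 24.6% of the 36-base stretches also occur in other genes. Of these stretches, 326 occur in Clec10a, the neighbouring and near-identical gene for CD301a, so reads may be divided between the pair. Clec10a measured 27.3, 19.2 and 32.3 CPM in BMTGMP and 2.24 to 12.7 CPM in wtGMP. Mgl2 held 87.0, 90.7 and 87.4% of the counts of the pair in BMTGMP. Clec10a was lower in LTearly than in BMTGMP by a log2 change of -4.01 ± 1.07 (adjusted p = 0.0243) and lower in LTlate by -4.51 ± 1.19 (adjusted p = 0.047). CD301b is carried by type 2 dendritic cells in some tissues. The 7 genes listed for these cells summed to 123 to 148 CPM in wtGMP and 368 to 538 in LTearly. Their sum was 384 to 444 CPM in LTlate and 207 to 253 in BMTGMP. Most of each sum was Sirpa, an inhibitory receptor gene also expressed by other myeloid cells, so the sums mainly rank that gene. Of the 5 that could be tested, 2 (Sirpa and Irf4) were called higher and 0 lower in BMTGMP against wtGMP. In LTearly 3 and in LTlate 2 were called higher. Over all genes tested, 4.41, 11.1 and 7.53% were called higher in BMTGMP, LTearly and LTlate. Sirpa measured 106 to 130 CPM in wtGMP and 231, 220 and 199.7 CPM in BMTGMP. Irf4 was at 0 in wtGMP and at 2.30 to 4.84 CPM in BMTGMP. Itgax (CD11c) had 1.94 to 5.21 CPM in BMTGMP, was at 0 in 3 of the 4 wtGMP libraries and was not called, and Cd209a was at 0 in the 3 BMTGMP libraries. Their part in the Mgl2 result was not tested.

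Within LTearly, 5 of the 6 activating receptors shared the order of their top libraries. LTearly replicate 1 was highest for Clec4d, Clec4e, Clec4n, Clec7a and Clec5a, replicate 3 was next in each, and replicate 4 was lowest for all of these but Clec5a, where replicate 2 was. The highest library exceeded the lowest 21.8-fold for Clec4d, 49.0-fold for Clec4e and 49.5-fold for Clec4n, against 1.94-fold for Clec7a and 2.33-fold for Clec5a. Clec9a, the other activating receptor, was highest in replicate 2 (12.3 CPM) and was lower in replicate 1 (5.14 CPM) than in replicate 3 (8.08 CPM). The inhibitory receptors did not follow the order either: Clec4a2 was lowest in replicate 3 and Clec12a in replicate 1. Without LTearly replicates 3 and 4, which left 2 LTearly libraries, 6 of the 9 genes were called against wtGMP, as with all 4, and 5 against BMTGMP in place of 4, with Clec4e added (adjusted p = 0.0294).

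Across the 14 libraries, log2 CPM of Clec4d had a Pearson correlation of 0.86 with Clec4n, 0.85 with Clec4e and 0.81 with Clec7a. Mgl2 had negative correlations with 8 of 8 other members, the lowest with Clec7a (-0.79). Clec12a had values between -0.26 and 0.57 with the others. These libraries share groups and depth, and the values are descriptions. Among genes whose mean over the libraries reached 5 CPM, the 3 most like Clec4d were the fatty acid transporter gene Slc27a4 (0.96), the lipopolysaccharide co-receptor gene Cd14 (0.94) and the kinase gene Jak1 (0.94). For Clec4e they were Acod1, the itaconate-producing enzyme of inflamed macrophages (0.91), Shoc2 (0.91) and Ets2 (0.90), and for Clec4n Tnfrsf1b (0.89), Mvp (0.88) and Susd6 (0.88). For Clec5a they were Snx10 (0.94), Mgst1 (0.92) and the Toll-like receptor gene Tlr2 (0.91), and for Clec7a Plcl2 (0.87), Anxa7 (0.87) and Rnf150 (0.85). For Clec9a they were Daam1 (0.95), Rab43 (0.93) and Furin (0.91), for Clec4a2 Igf2bp3 (0.95), Sh2d1b1 (0.95) and Nhsl2 (0.94), for Clec12a Pxylp1 (0.90), Tbc1d9b (0.89) and Tm9sf2 (0.84), and for Mgl2 Ppm1f (0.89), Top3b (0.88) and Ing5 (0.86).

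**Figure D4:**
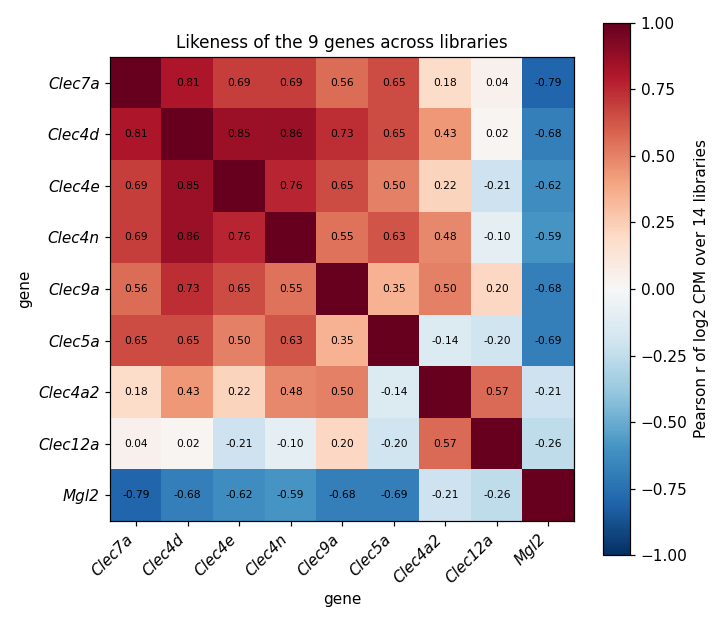
Pearson correlation of log2 CPM over 14 libraries between each pair of the 9 genes (both axes), from -1 (blue) to 1 (red), with the value in each cell. The 4 genes Clec7a, Clec4d, Clec4e and Clec4n correlate at 0.69 or more with each other, and the values of Mgl2 are negative throughout.

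Genes that activating lectin receptors induce were also uneven within LTearly. Il1b, a cytokine gene, measured 431, 47.7, 260 and 4.81 CPM in LTearly replicates 1 to 4 and 1.18 to 4.75 CPM in wtGMP. Of the 20 genes listed 14 could be tested, and 5 were called higher and 0 lower in LTearly against wtGMP, beside 11.1 and 8.93% of all genes tested, with a median of 2.07 against 0.22 over all genes. In LTlate 1 was called higher and 0 lower, beside 7.53 and 3.25%, with a median of 0.52 against 0. BMTGMP had 1 higher and 2 lower, beside 4.41 and 2.17%, with a median of -1.18 against 0.07. Il1b rose in LTearly by 6.23 ± 1.30 (adjusted p = 0.00619), and Il1rn, the gene of the interleukin receptor antagonist, by 6.51 ± 1.23 (adjusted p = 0.00268). Il1rn also rose in LTlate (5.50 ± 1.23, adjusted p = 0.013) and BMTGMP (5.09 ± 1.23, adjusted p = 0.0295). Nfkbiz, a nuclear NF-κB cofactor gene, rose in LTearly by 1.26 ± 0.32 (adjusted p = 0.0065) and fell in BMTGMP by 2.49 on the log2 scale (SE 0.38, adjusted p = 0.000131). Nlrp3, the inflammasome sensor gene, fell in BMTGMP by 2.0 on the log2 scale (SE 0.44, adjusted p = 0.00601) and was not called in LTearly against wtGMP. The whole list summed to 1384, 408, 773 and 148 CPM in LTearly replicates 1 to 4, 129 to 166 CPM in wtGMP, 196 to 310 CPM in LTlate and 60.6 to 78.0 CPM in BMTGMP. LTearly replicate 4 thus lay within the wtGMP range for this list, as it did for Clec4e.

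**Figure D5:**
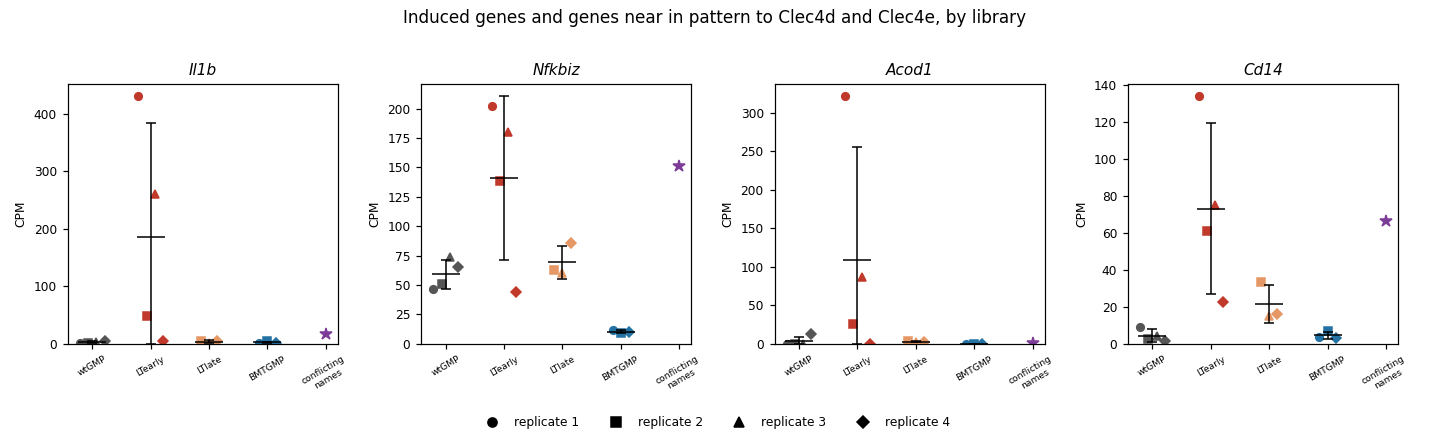
CPM (linear axis from 0) of Il1b and Nfkbiz, from the list of induced genes, and of Acod1 and Cd14, near in pattern to Clec4e and Clec4d, in every library, with the replicate number as the symbol, the mean as a bar, the SD as whiskers (not drawn below 0) and the library with conflicting names as a star. In each panel LTearly replicate 1 is highest, replicate 3 is next and replicate 4 is the lowest LTearly library.

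Some of the adaptors and kinases that carry the receptors' signal rose. Of 19 listed, all tested, 10 rose and 0 fell in LTearly, 9 rose and 0 fell in LTlate, and 5 rose and 0 fell in BMTGMP against wtGMP, with medians of 0.87, 0.70 and 0.36. The other 9, 10 and 14 were not called. Over all genes tested, 11.1, 7.53 and 4.41% were called higher and 8.93, 3.25 and 2.17% lower in these 3 comparisons, and the medians were 0.22, 0 and 0.07. Tyrobp, which pairs with Clec5a, measured 106 to 139 CPM in wtGMP and rose by 1.90 ± 0.19 in LTearly, 1.91 ± 0.19 in LTlate and 1.37 ± 0.19 in BMTGMP (adjusted p = 2.44e-08, 9.39e-08 and 2.08e-05). Fcer1g, which pairs with Clec4d, Clec4e and Clec4n and is named here after its values were seen, rose by 1.60 ± 0.39 in LTearly (adjusted p = 0.00398) and 1.46 ± 0.41 in LTlate (adjusted p = 0.0189). Syk rose by 1.21 ± 0.16 in LTearly and 0.87 ± 0.17 in LTlate (adjusted p = 2.17e-06 and 0.000597). Lyn, a Src-family kinase gene with activating and inhibitory roles, rose in all 3 groups, by 1.94 ± 0.21, 1.95 ± 0.22 and 1.12 ± 0.22. Fgr, of the same family, had 3 pooled counts in wtGMP against 2721 in LTearly, a ratio of 815 with a 95% counting interval of 279 to 3956. Between LTearly and BMTGMP, 5 of the 19 were called higher, beside 3.4% of all genes tested, and 0 lower, beside 2.81%. Syk, by 0.70 ± 0.17 (adjusted p = 0.0112), and Lyn, by 0.82 ± 0.22 (adjusted p = 0.0243), were among the 5.

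On the inhibitory side, 8 enzymes and adaptors were listed and tested. In LTearly 5 rose, 0 fell and 3 were not called, in LTlate 4 rose, 0 fell and 4 were not called, and in BMTGMP 1 rose, 0 fell and 7 were not called, beside 11.1, 7.53 and 4.41% of all genes called higher. Ptpn6, the phosphatase that ITIM receptors recruit, measured 452 to 555 CPM in wtGMP and 878 to 1287 CPM in LTearly, a rise of 1.06 ± 0.16 (adjusted p = 2.31e-05), and it rose by 1.05 ± 0.17 in LTlate (adjusted p = 9.43e-05). Inpp5d, the inositol phosphatase gene for SHIP, rose by 0.57 ± 0.17 in LTearly and 0.72 ± 0.19 in LTlate (adjusted p = 0.0187 and 0.00986). The docking protein gene Dok3 rose in all 3 groups, by 1.49 ± 0.27, 1.31 ± 0.28 and 1.24 ± 0.28 (adjusted p = 0.000176, 0.00215 and 0.00537), and Dok2 rose by 3.33 ± 0.99 in LTearly and 3.64 ± 1.03 in LTlate.

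Of 35 other C-type lectin genes listed, 26 could be tested, and 8 rose and 2 fell in LTearly, 6 rose and 1 fell in LTlate, and 5 rose and 1 fell in BMTGMP against wtGMP. Over all genes 11.1, 7.53 and 4.41% were called higher and 8.93, 3.25 and 2.17% lower, so that 1 or 2 falls among 26 genes are near the share over all genes. Ly75, the gene of the endocytic receptor DEC-205, rose by 3.42 ± 0.34, 2.14 ± 0.34 and 2.21 ± 0.34 in the same order (adjusted p = 2.92e-08, 7.18e-05 and 7.13e-05). Colec12, a scavenger receptor gene, rose by 4.44 ± 0.67, 5.86 ± 0.70 and 3.6 ± 0.68. Clec2i, a ligand gene for natural killer cell receptors, rose by 5.25 ± 0.73, 5.42 ± 0.75 and 4.20 ± 0.74. Cd93 fell in BMTGMP by 3.12 on the log2 scale (SE 0.27, adjusted p = 2.16e-08) and in LTearly by 1.18 (SE 0.22, adjusted p = 0.000365), and was not called in LTlate.

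Of 12 transcription factor genes listed for myeloid lectin expression, 11 could be tested. In LTearly 5 rose and 1 fell, in LTlate 5 rose and 0 fell, and in BMTGMP 5 rose and 1 fell. Over all genes 11.1, 7.53 and 4.41% were called higher and 8.93, 3.25 and 2.17% lower, and 1 fall among 11 genes in LTearly is near that share. Cebpb, a factor of activated macrophages and emergency granulopoiesis, measured 29.4 to 41.0 CPM in wtGMP and rose by 2.18 ± 0.30 in LTearly, 1.30 ± 0.31 in LTlate and 1.22 ± 0.31 in BMTGMP (adjusted p = 1.57e-05, 0.0069 and 0.0168). Id2, an inhibitor of E proteins needed for dendritic cells, rose by 4.88 ± 0.82, 4.65 ± 0.83 and 3.37 ± 0.81. Irf4 had no count in wtGMP and was at least 34.8-fold higher in LTearly, 12.4-fold in LTlate and 24.6-fold in BMTGMP, with 3 counts over wtGMP as the floor. Gfi1, a repressor that favours granulocytes, rose in BMTGMP by 2.05 ± 0.32 (adjusted p = 0.000334) and was lower in LTearly than in BMTGMP (-1.66 ± 0.32, adjusted p = 0.00349).

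Markers of some other cell types moved with the groups. The 9 late neutrophil genes measured summed to 32.7 to 63.7 CPM in wtGMP, 6960 to 14426 in LTearly, 3140 to 6046 in LTlate and 839 to 4049 in BMTGMP, with 9, 8 and 6 of them called higher against wtGMP and 0 lower. Within LTearly their sum was 10144, 14426, 12390 and 6960 CPM in replicates 1 to 4, so that replicate 4 was lowest here too and replicate 2, not 1, was highest. The 11 monocyte and macrophage genes summed to 2094, 2868, 6816 and 2501 CPM in LTearly replicates 1 to 4, 1996 to 2302 in wtGMP, 1968 to 3372 in LTlate and 797 to 2345 in BMTGMP, so that each leukaemia group overlapped with wtGMP. Of these genes 4, 5 and 2 were called higher and 0 lower in LTearly, LTlate and BMTGMP, and 7, 6 and 9 were not called. Over all genes tested, 11.1, 7.53 and 4.41% were called higher and 8.93, 3.25 and 2.17% lower in the same order. Within this list Ctss measured 651 to 4400 CPM in LTearly and 134 to 246 in wtGMP. F13a1 measured 442 to 1280 CPM in LTearly and 1264 to 1495 in wtGMP, so the sum joins unlike differences. Progenitor genes (Mpo, Kit, Cd34 and 5 others) summed to 19388 to 22701 CPM in wtGMP, most of it Mpo (16001 to 19183 CPM). Their sum was 1402 to 6619 CPM in LTearly, 1614 to 2020 in LTlate and 8109 to 11680 in BMTGMP. Of these 8 genes, 0 were called higher and 6 lower in LTearly against wtGMP. In LTlate 2 were called higher and 4 lower, and in BMTGMP 0 higher and 1 lower. Fcgr3, of this list, measured 362 to 484 CPM in LTlate and 225 to 302 in wtGMP. Fcgr2b, also listed, measured 155 to 164 CPM in LTlate and 53.8 to 104 in wtGMP. Itgam, the gene of the depleted antigen Cd11b, measured 31.1 to 76.2 CPM in wtGMP and 865 to 1713 CPM in LTearly. The 5 genes listed for the stem cell gate summed to at most 6.33 CPM in wtGMP, 7.09 in LTlate and 24.5 in BMTGMP and to 22.5 to 48.1 CPM in LTearly. Most of the sum in each LTearly library was Mecom (23.0, 34.9, 31.6 and 20.3 CPM in replicates 1 to 4). In BMTGMP replicate 4, the highest of its group, most was Hlf (19.7 CPM). Of the 5 genes 4 could be tested, and 0 were called in LTearly, LTlate or BMTGMP against wtGMP. Slamf1 (Cd150), which defines that gate, was at 0 in 12 of the 14 libraries. Eosinophil, basophil and mast cell genes (8 listed) summed to 167 to 285 CPM in wtGMP, 9.55 to 104 in LTearly, 128 to 361 in LTlate and 10.8 to 20.0 in BMTGMP, and 6 plasmacytoid dendritic cell genes summed to 21.4 to 122 CPM over all 14 libraries. B cell, T and NK cell, erythroid and megakaryocyte lists summed to at most 16.5, 28.5, 12.1 and 26.4 CPM in any of the 14 libraries. The part of these cell types in the lectin results was not tested.

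Between genes, levels were compared as mean CPM per kb of transcript. In wtGMP Clec5a (192 CPM per kb) and Clec12a (145) led, followed by Clec7a (21.8), Mgl2 (13.9) and Clec4e (6.37), with Clec4n (0.408) and Clec9a (0.0299) last. Clec5a led in LTearly too (345 CPM per kb), before Clec12a (200), Clec4e (71.8), Clec4d (59.4) and Clec7a (55.3). In LTlate Clec12a led (302 CPM per kb), before Clec5a (137). BMTGMP had Clec12a (188 CPM per kb) and Mgl2 (125) before Clec5a (60.4) and Clec4a2 (27.5).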

How the data were processed

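RNA of sorted cells was made into libraries with a low-input ScriptSeq kit, per the labels' protocols. The deposited table holds estimated counts per RefSeq mRNA: the authors placed reads on mm9 allowing up to 100 hits per read, per the file headers. The submitters' processing notes list Bowtie 0.9.9.1. Of the deposited values, 13.75% were not whole, so reads with several hits may be divided between similar genes. The handling of strand is not given in the sources used here. Of 28847 transcripts, 25973 matched RefSeq's GRCm38.p6 gene table and 119 more matched GENCODE M21 names; 3.51 to 4.16% of counts in a library fell on transcripts without a gene and were left out. The transcript with the highest mean count stood for each of 20453 genes, and counts were rounded. The table has 1 more column that matches no sample, and it was not used.

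edgeR 4.0.16 (R 4.3.3) fitted the 14 libraries together: filterByExpr, TMM factors and the robust quasi-likelihood test, 2-sided, with Benjamini-Hochberg adjustment over the 14542 genes tested and a threshold of 0.05. The SE is the log2 change divided by the square root of F, and 95% intervals of log2 changes are normal ones. The common biological coefficient of variation was 0.748. Counting intervals of pooled ratios are exact (Clopper-Pearson) and treat reads as independent molecules. Likeness between genes is Pearson's r of log2 CPM (prior count 2). Alternatives were DESeq2 1.42.0, median-ratio factors, other filters, only the 2 groups compared, summed transcripts, libraries thinned to 2469470 counts, the library with conflicting names counted as LTearly or as LTlate, a replicate block and leaving out each library. Fitting without LTearly replicates 3 and 4 was added after seeing the data. Scripts were tested on simulated data.

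The 9 genes and all gene lists were chosen with earlier results of these data known. Genes named from a list are up to 4 with the smallest p over the 6 comparisons among those called. Also named are the 3 nearest in pattern to each of the 9. The Clec4 neighbours, Clec10a, Clec1b, Fcer1g, Fcgr3, Fcgr2b, F13a1, Xcr1, Batf3, Zbtb46, Wdfy4, Cd209a, Mecom, Hlf and Slamf1 were named after their values were seen. In the table no pair of libraries held identical values.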

Additional observations from a re-analysis of the deposited data

Results flagged for a closer look

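For 2 genes, 1 wtGMP library had counts and the other 3 had none. Clec9a had 0.394 CPM in wtGMP replicate 2 and 0 in the other 3 libraries, and Clec4n had 2.01 CPM in wtGMP replicate 1 and 0 in the others. Dixon's ratio of gap to range is 1 in any such group of 4, whatever the value, so that it passed its critical value without showing that the library stood far from the others. Of 18 groups of 4 libraries tested, chance alone would single out about 1 in 20. The Clec9a value is a single count and lies below the 0.430, 0.650 and 0.936 CPM that a count of 0 allows in wtGMP replicates 1, 3 and 4.

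The library titled LTearly in its sample record and LTlate in its column entered no comparison. It had 849 CPM of Clec12a, 5.83 of Clec9a, 15.1 of Clec4d, 148 of Clec4e, 3.05 of Clec4n and 105 of Clec4a2. Each of these levels lay above every wtGMP library. The share of all genes that do so in this library was not computed, so the levels are descriptions. Its levels of Mgl2 (7.02 CPM), Clec7a (60.8) and Clec5a (198) were not above all wtGMP libraries. For Clec4a2 and Clec12a it exceeded every LTearly library, whereas for Clec4d and Clec4n it lay within the range of both LTearly and LTlate.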

How the results depend on the processing

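Against wtGMP, the 9 genes kept the number called within 1.5 times in LTearly (6 as reported) and BMTGMP (2) under all alternatives that leave no library out, whereas in LTlate (3 as reported) 5 were called both by DESeq2 and with only the 2 groups in the fit. Genes called over the whole table in LTlate against wtGMP were 1568 as reported and 2483 with only the 2 groups. LTearly against LTlate, with 0 of the 9 called by edgeR, gave 1 by DESeq2. There, 30 genes were called over the whole table, with 256 by DESeq2, 141 with no low-count filter, 52 with a filter of 1 CPM in 3 libraries, 86 and 0 with the library with conflicting names counted as LTearly and as LTlate, and 173 without LTearly replicates 3 and 4. Of these 30, 56.7% were higher in LTearly, against 69.5% by DESeq2 and 36.2% with no filter. LTearly against BMTGMP gave 903 genes, 1493 by DESeq2 and 407 with only the 2 groups. LTlate against BMTGMP gave 1 of the 9 as reported and 3 with only the 2 groups, and 288 genes over the table (76.7% higher in LTlate), 569 by DESeq2 (66.4% higher) and 454 with only the 2 groups. The cause was not tested.

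Directions turned only for changes that were not called. LTearly against LTlate was 0.22 for Mgl2 with the library with conflicting names counted as LTearly and -0.19 for Clec4a2 with it counted as LTlate. LTearly against BMTGMP was -0.19 for Clec12a without LTearly replicates 3 and 4, and 0.0006 for Clec4a2 with the library with conflicting names counted as LTearly.

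Replicate numbers did not pair the samples: deviations of libraries with the same number correlated at -0.16 to 0.115. With a replicate block, LTlate against BMTGMP gave 2 of the 9 genes, beside 238 genes higher and 61 lower over the whole table. With it, BMTGMP against wtGMP was 0.37 for Clec4d, and Clec4a2 was 0.053 in LTearly and 0.0038 in LTlate against BMTGMP. Under the block the changes of Clec4e in LTearly (adjusted p = 0.111) and of Clec9a in LTlate (0.114) against wtGMP were not called. It called Clec4n in LTearly (0.000746), Clec4d (0.0122) and Clec7a (0.026) in LTlate and Clec5a in BMTGMP (0.00901) against wtGMP, and Clec4n in LTearly (0.0302) and Clec7a in LTlate (0.00416) against BMTGMP.

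Leaving out 1 library of the groups compared gave these ranges of the 9 genes called: 4 to 7 in LTearly, 1 to 3 in LTlate and 1 to 3 in BMTGMP against wtGMP, 0 in each case for LTearly against LTlate, and 2 to 5 in LTearly and 1 to 2 in LTlate against BMTGMP. Genes over the table ranged from 2339 to 3187, 921 to 1332, 709 to 892, 4 to 209, 583 to 1288 and 155 to 308 in the same order. Directions that turned ranged, in BMTGMP against wtGMP, from -2.33 to 4.55 for Clec9a, -0.45 to 0.66 for Clec4d, -0.49 to 0.12 for Clec4e and -0.52 to 5.59 for Clec4n. In LTearly against LTlate they ranged from -1.16 to 0.23 for Mgl2, -0.46 to 2.23 for Clec9a and -0.038 to 0.28 for Clec4a2. Against BMTGMP they ranged in LTearly from -0.28 to 0.40 for Clec12a and -0.51 to 0.29 for Clec4a2, and in LTlate from -0.62 to 0.18 for Clec4a2. Values for Clec4n and Clec9a in groups with a few counts or none depend on the prior count. Over the 9 genes and 6 comparisons, 320 of the changes without 1 library kept direction and call, 29 lost the call, 8 gained it and 21 turned. Depth limits Clec9a and Clec4n most, since a count of 0 allows 0.430 to 1.21 CPM in wtGMP.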
